A study of Caenorhabditis elegans with 2 samples.

Results

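The 7 endoderm GATA cascade genes of *Caenorhabditis elegans* are *elt-2*, *elt-7*, *elt-4*, *end-1*, *end-3*, *med-1* and *med-2*, out of 19973 protein-coding genes in the annotation. They were chosen by name, from their known roles, with earlier results of these data already known. Each was given the same window: its gene body and the 2000 bp upstream of its annotated start. A region was given to a gene when its summit lay in that window. The regions come from chromatin immunoprecipitation followed by sequencing (ChIP-seq) of eGFP-tagged SKN-1 in whole L4 larvae. The worms were of strain OP342, genotype unc-119(ed3) III; wgIs342, so that SKN-1 carrying the tag came from the integrated transgene wgIs342 in worms that also carry an *unc-119* mutation. The labels name *skn-1* as the antibody's target. Mixed-sex worms were sampled as 2 biological replicates of 1 group, so there is no second genotype, stage or treatment to compare, and no untagged worms are among the 2 samples.

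SKN-1 is a transcription factor supplied by the mother to the early embryo, where it starts the gene cascade that makes the gut. In the cell that founds endoderm and mesoderm, SKN-1 turns on *med-1* and *med-2*, whose products turn on *end-1* and *end-3* in the endoderm founder. The END proteins turn on *elt-2* and *elt-7*, which stay on in the intestine for the life of the worm and drive gut genes there, while the *med* and *end* genes are expressed only briefly in the embryo. In larvae SKN-1 acts in the intestine, where it is known for activating detoxification genes. The tagged larvae were therefore taken long after the *med* and *end* genes are switched off and while *elt-2* and *elt-7* are active.

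In these larvae the early genes had no region in the list made from both replicates together, and the gut factors had only weak ones. Of the 7 genes, *elt-2* had 1 pooled region and *elt-7* had 2. The 4 early genes *med-1*, *med-2*, *end-1* and *end-3* had none, and neither had *elt-4*. A region was found in the same kind of window at 73.1% of all protein-coding genes, so 2 of 7 was no excess over the rest of the genome. None of the 97 peaks that passed the authors' threshold on reproducibility lay in a window of the 7 genes, and only 0.591% of protein-coding genes had such a peak.

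The pooled list held 29768 regions and each replicate's list held 30000. These lists hold background regions along with peaks and run down to very weak signals, so a listed region is not evidence of binding. The signal value that ranks each list was set by the authors' caller on a scale that is not stated, and the lists' scales differ. The pooled signals lay between 6.98 and 80.4. Replicate 1 spanned 3.84 to 57.6, and replicate 2 spanned 4.03 to 29.3. Rank 1 is the strongest region of a list, and ranks are the measure used here. Read depth is unknown, because the lists hold no counts. In whole worms, binding in few cells and weak binding in many cannot be told apart.

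ELT-2 is the main transcription factor of the differentiated intestine, and its gene lies on chromosome X at 10481240-10483441 (ce11, plus strand). Its pooled region, chrX:10480339-10480728, lay between genes with its summit 706 bp upstream of the start. The region ranked 15830 with a signal of 9.33, close to the list's median of 9.53, and its −log10 q-value was 0.101. Among all protein-coding genes, 51.8% had a stronger pooled region in their window. The stretch below is shown because it is the only pooled region at *elt-2*. It is the last 300 bases of the region, chrX:10480429-10480728, on the plus strand of ce11, with the GATA site TGATAA and the SKN-1 core ATCAT or GTCAT in capitals on either strand.

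elt-2: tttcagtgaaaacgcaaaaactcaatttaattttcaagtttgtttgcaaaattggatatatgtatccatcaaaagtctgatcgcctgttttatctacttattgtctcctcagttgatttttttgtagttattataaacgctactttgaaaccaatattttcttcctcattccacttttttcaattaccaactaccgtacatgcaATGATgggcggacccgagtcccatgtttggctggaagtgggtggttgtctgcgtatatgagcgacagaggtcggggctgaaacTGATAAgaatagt

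The capitals mark 1 SKN-1 core, read on the opposite strand, and 1 TGATAA. The full SKN-1 site, which is 2 bases each A or T followed by TATCAT or TGTCAT, did not occur in the whole pooled region. No match to a motif says only that these letters are not in the window.

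The *elt-2* region rested on replicate 1. In that list a region at chrX:10480414-10480653, with the same summit 706 bp upstream, ranked 2910 of 30000 with a signal of 8.06 and a −log10 q-value of 1.38. This was the strongest rank of any region of the 7 genes in the 3 lists, and 14.1% of protein-coding genes had a stronger region in replicate 1. Replicate 2 had no region overlapping it. Elsewhere in *elt-2*, replicate 1 had a region in a coding exon with its summit 574 bp downstream of the start, which ranked 10536. Replicate 2 had a region in the same exonic stretch, with its summit at 615 bp, which ranked 26684. This was the only overlap between the replicates in the windows of the 7 genes. The pooled list had no region there. Another region of replicate 1 lay in the 3′ untranslated region, 2146 bp downstream of the start, ranked 26673 and held 1 full SKN-1 site. It also lay in the window of the next gene, C33D3.3, the nearest annotated start at 1964 bp.

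ELT-7, a GATA factor that acts alongside ELT-2 in gut differentiation, is encoded on chromosome V at 4770670-4773086 on the plus strand. Its 2 pooled regions were among the weakest of the list. The nearer, chrV:4770093-4770482, lay between genes with its summit 382 bp upstream, and ranked 24779 with a signal of 7.69. It also lay in the window of the neighbouring gene C18G1.9. The farther, chrV:4768880-4769269, had its summit 1595 bp upstream in an intron of C18G1.9, whose start was nearer at 658 bp, and ranked 27082 with a signal of 7.35. Both signals were little above the list's minimum of 6.98. The nearer region overlapped a region of replicate 1 only, which ranked 16982, and the farther overlapped a region of replicate 2 only, which ranked 20648. Neither position was therefore listed in both replicates.

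The last 300 bases of the nearer pooled region, chrV:4770183-4770482 on the plus strand of ce11, are shown as the counterpart of the *elt-2* stretch, with the same motifs in capitals. They held 1 SKN-1 core and no TGATAA.

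elt-7: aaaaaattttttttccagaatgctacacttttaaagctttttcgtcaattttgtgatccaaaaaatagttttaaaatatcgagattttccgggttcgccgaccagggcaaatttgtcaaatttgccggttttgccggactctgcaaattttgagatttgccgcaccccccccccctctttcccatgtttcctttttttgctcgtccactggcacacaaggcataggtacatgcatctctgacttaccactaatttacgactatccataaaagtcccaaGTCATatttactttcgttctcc

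ELT-4 is a short relative of ELT-2 with no established role in the gut, and its gene, at chromosome X 10475527-10475959, starts 5713 bp upstream of the start of *elt-2*. It had no pooled region, and the nearest pooled region had its summit 802 bp downstream of the start, past the end of the gene, with a rank of 16929. Replicate 1 had regions with summits 368 bp upstream and 199 bp downstream, in a coding exon, which ranked 15986 and 16987. Replicate 2 had a region 753 bp upstream, which ranked 26209. Both replicates thus had regions in the window of *elt-4*, at different positions.

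END-1 and END-3 are GATA factors that commit the endoderm founder cell to gut. Their genes lie near each other on chromosome V, *end-1* at 13985128-13987074 and *end-3* at 14014695-14015980, both on the plus strand. Neither had a region in the pooled list or in replicate 2. In replicate 1, *end-1* had a region in a coding exon with its summit 1735 bp downstream of the start, chrV:13986743-13986982. It ranked 4289 with a signal of 7.41, held 1 full SKN-1 site, and 19.7% of protein-coding genes had a stronger region in that replicate. A second region of replicate 1, in an intron of *end-1* at 340 bp downstream, ranked 24313. At *end-3*, replicate 1 had a region in an intron 427 bp downstream, which ranked 17444. Another lay 1260 bp upstream, in a coding exon of *aip-1*, ranked 24301 and was also inside the window of *ddx-17*.

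The promoters of both *end* genes hold sites for the MED proteins, the link of the cascade just above them. The MED site, AAGTATAC or GAGTATAC on either strand, occurred 2 times in the 2000 bp upstream of *end-1* and 4 times upstream of *end-3*. At least 1 such site was found upstream of 7.60% of protein-coding genes, and at least 4 upstream of 0.0451%. The other 5 genes of the cascade had none. The stretches below run from 245 to 71 bp upstream of each start on the plus strand of ce11, at chrV:13984883-13985057 for *end-1* and chrV:14014450-14014624 for *end-3*, with MED sites in capitals. They are shown because they carry all the MED sites of the cascade.

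end-1: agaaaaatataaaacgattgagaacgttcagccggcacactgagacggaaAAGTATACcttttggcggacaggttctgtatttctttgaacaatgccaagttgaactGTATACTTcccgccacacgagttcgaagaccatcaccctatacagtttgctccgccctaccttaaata
end-3: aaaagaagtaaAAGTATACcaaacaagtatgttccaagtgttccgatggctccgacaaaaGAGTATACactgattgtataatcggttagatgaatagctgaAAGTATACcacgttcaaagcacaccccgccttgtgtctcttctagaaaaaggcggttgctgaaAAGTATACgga

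These MED sites lay 195 and 138 bp upstream of *end-1*, and 234, 185, 144 and 81 bp upstream of *end-3*. No region of any list covered them. The nearest regions, all of replicate 1, ended between 351 and 534 bp away.

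MED-1 and MED-2 are near-identical GATA-like factors, the first zygotic step below SKN-1. The genes are at chromosome X 12430609-12431133 and chromosome III 6884503-6885027, each 525 bp long and on the plus strand. Along the gene bodies 512 of 525 bases were identical (97.52%). Of the stretches of 31 bases in each gene body, 48.4% occurred at a single place in the genome, against 97.8% in the 2000 bp upstream of each. Reads from the gene bodies could not all be placed at a single gene, and how the authors treated such reads is not given in the sources used here. Values inside the 2 bodies are therefore uncertain. When the upstream sequences were aligned, identity between the genes was 80.62% over 500 bp and 56.41% over 2000 bp, with gaps counted as differences. The stretch that holds the SKN-1 cluster is nearly the same in both, so some short reads from it could also fit either gene. Values there are therefore less certain as well.

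Neither *med* gene had a region in the pooled list or in replicate 1. In replicate 2, *med-1* had 2 overlapping regions between genes, with summits 315 and 584 bp upstream, which ranked 13630 and 22205 with signals of 5.96 and 4.80. For the stronger of them, chrX:12430096-12430491, 47.9% of protein-coding genes had a stronger region in that replicate. At *med-2*, replicate 2 had a region 1037 bp upstream, chrIII:6883268-6883663, in an intron of K04C2.7, which ranked 27328 with a signal of 4.27. The *med* genes were thus listed only in replicate 2 and the *end* genes only in replicate 1.

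The promoters of the *med* genes hold the known cluster of SKN-1 sites. In the stretches below, from 180 to 61 bp upstream of each start on the plus strand of ce11 (chrX:12430429-12430548 for *med-1* and chrIII:6884323-6884442 for *med-2*), the SKN-1 core ATCAT or GTCAT on either strand is in capitals.

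med-1: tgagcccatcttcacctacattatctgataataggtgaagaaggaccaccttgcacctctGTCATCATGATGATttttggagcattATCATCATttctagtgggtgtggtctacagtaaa
med-2: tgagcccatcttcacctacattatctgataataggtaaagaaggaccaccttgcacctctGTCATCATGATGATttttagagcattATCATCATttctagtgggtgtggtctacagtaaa

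The 2 stretches differ at 2 positions, both outside the capitals. Each holds 6 cores, partly overlapping, within 34 bp. Such a cluster was found upstream of 24 of 19970 genes (0.12%) and of no other gene of the cascade. The full SKN-1 site lay in the cluster of both genes, 97 bp upstream. At *med-1* it was 21 bp beyond the edge of the stronger region of replicate 2, and that region reached 3 bp into the cluster. No other region of the 3 lists touched the cluster of either gene.

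**Figure D1:**
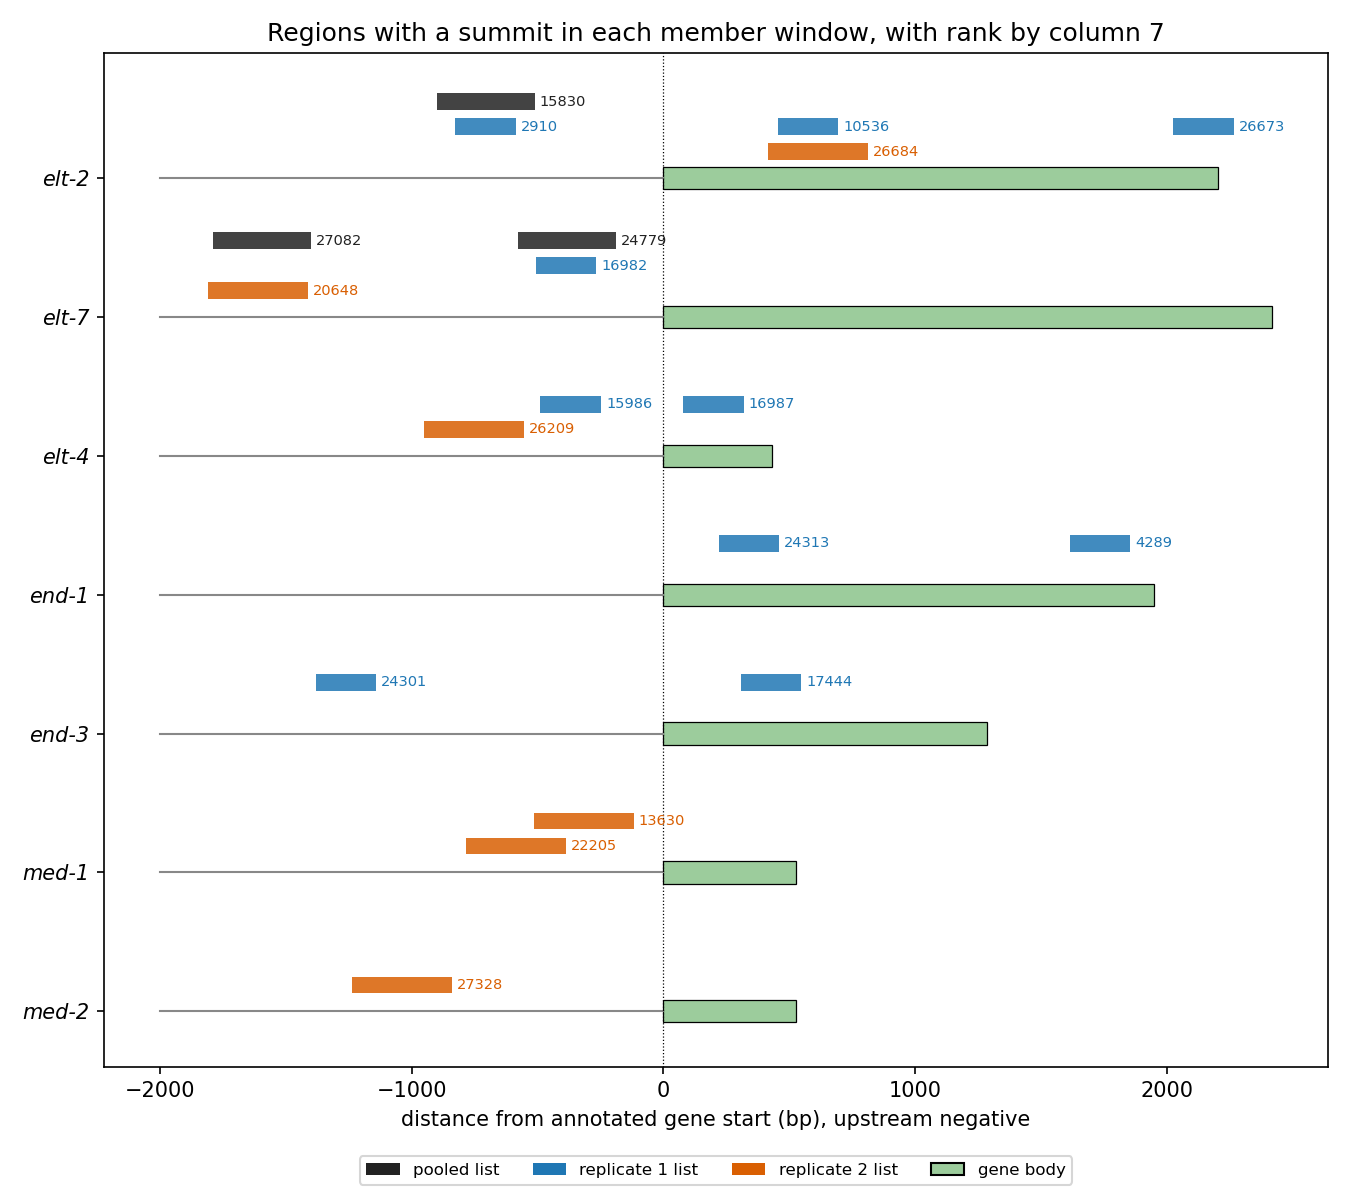
Regions with a summit in the window of each gene, in bp from the annotated start (upstream negative), with the list given by colour and the rank within that list beside each bar; green boxes are gene bodies. Pooled regions occur at *elt-2* and *elt-7*, regions of *end-1* and *end-3* are all from replicate 1, and regions of *med-1* and *med-2* are all from replicate 2.

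The contrast between the lasting gut factors and the early genes was read as counts, since 2 genes against 4 in 1 group of worms allow no test over samples. In the pooled list, 2 of 2 gut factors and 0 of 4 early genes had a region. The windows of the gut factors held 0.348 pooled regions per kb, the early genes held 0, and all protein-coding genes held 0.318. In replicate 1 the gut factors held 0.464 regions per kb and the early genes 0.326, against 0.319 over all genes. In replicate 2 the gut factors held 0.232 per kb and the early genes 0.244, against 0.319. By gene, 2 of 2 gut factors and 2 of 4 early genes had a region in replicate 1, against 73.6% of all protein-coding genes. The counts were the same in replicate 2, against 73.9%, but the early genes were different ones. A region in both replicates was found at 2 of 2 gut factors and 0 of 4 early genes, against 58.6%. The pooled difference between the classes rested on 3 weak pooled regions.

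Window length differed between the classes, and over all protein-coding genes the share with a pooled region rose with it. The windows of *elt-2* and *elt-7* were 4202 and 4417 bp, those of *end-1* and *end-3* 3947 and 3286 bp, and those of both *med* genes 2525 bp. Among protein-coding genes with windows of 4 to 5 kb, 76.2% had a pooled region. The share was 66.0% for windows of 3 to 4 kb and 55.3% for windows of 2 to 3 kb. With windows reaching 5000 bp upstream, 2 of 2 gut factors and 3 of 4 early genes had a pooled region, against 86.8% of all protein-coding genes.

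Read list by list, the 7 genes stayed near or under the genome's own share. In replicate 1, 5 of the 7 had a region (*elt-2*, *elt-7*, *elt-4*, *end-1* and *end-3*), against 73.6% of protein-coding genes. In replicate 2, 5 of the 7 had one (*elt-2*, *elt-7*, *elt-4*, *med-1* and *med-2*), against 73.9%. Only the 3 *elt* genes had a region in both replicates at any position, against 58.6% of protein-coding genes. Each of the 7 had a region in at least 1 list, and 9.34% of protein-coding genes had none.

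Strong regions were absent from the windows of the cascade. None of the 7 genes had a region among the 1000 strongest of the pooled list, of replicate 1 or of replicate 2, which reached 5.31%, 5.28% and 5.33% of protein-coding genes. None had a region among the 5000 strongest pooled regions, which reached 22.5% of genes, or among the 15000 strongest, which reached 50.1%. The best pooled region of the cascade, at *elt-2*, lay just outside this last set. These 2 wider sets were cut from the pooled list only. In single replicates some regions ranked within such limits. The best ranks were 2910 at *elt-2* and 4289 at *end-1* in replicate 1, and 13630 at *med-1* in replicate 2.

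**Figure D2:**
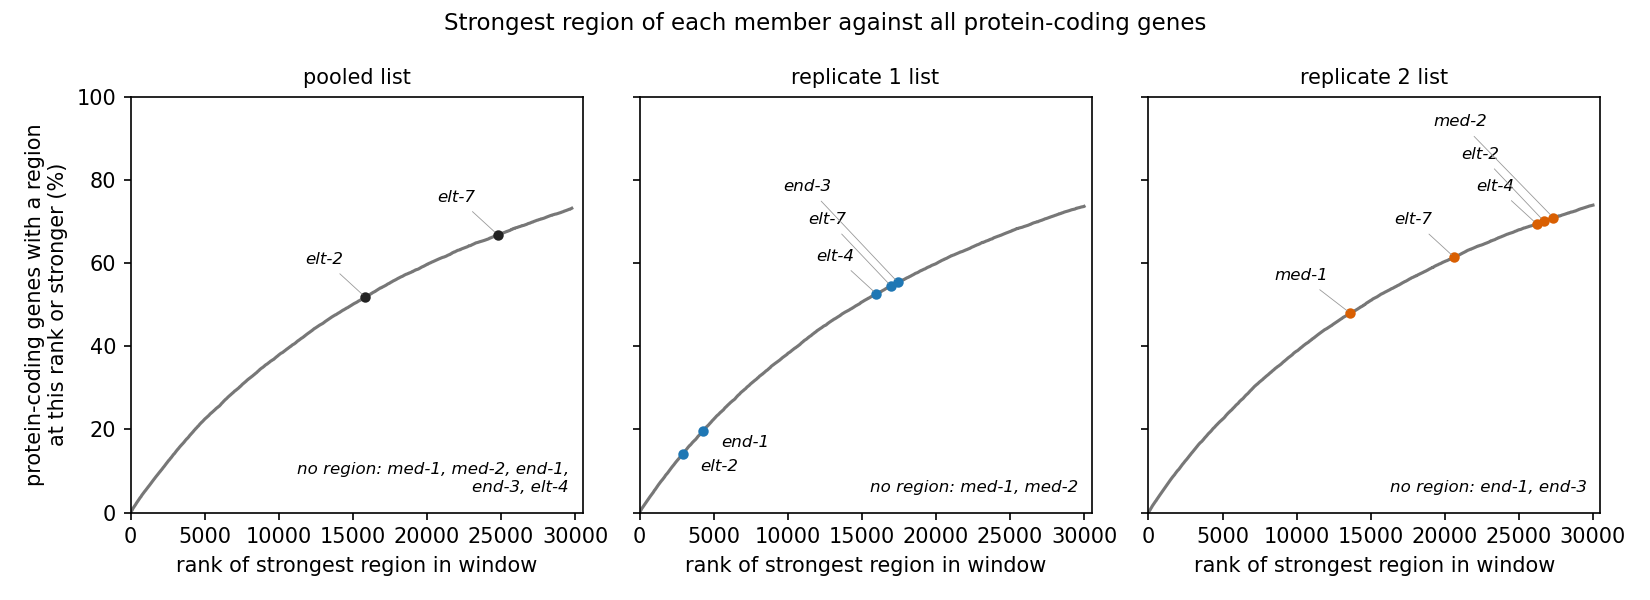
Share of protein-coding genes (%) with a region at a given rank or stronger in the window, plotted against that rank in each of the 3 lists, with the strongest region of each gene of the cascade marked on the curve. *elt-2* at rank 2910 and *end-1* at rank 4289, both in replicate 1, are the leftmost of the marked genes.

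The replicates shared a minority of positions, at these genes as in the whole lists. Of the 6 regions of replicate 2 in the windows, 1 overlapped a region of replicate 1, at *elt-2*, against 28.7% of all regions of replicate 2. Of the 10 regions of replicate 1, that 1 overlapped replicate 2, against 27.4% of all its regions. None of the 3 pooled regions overlapped regions of both replicates, against 28.9% of all pooled regions. The median width of a region was 240 bp in replicate 1 and 396 bp in replicate 2, so the lists differ in region width.

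Sites for SKN-1 were common upstream of the 7 genes, as they were in the genome. The full SKN-1 site occurred 9 times in the 2000 bp upstream of the 7 genes: 2 times each at *elt-2*, *end-1* and *med-2*, 1 time each at *elt-7*, *end-3* and *med-1*, and never at *elt-4*. It was present upstream of 66.2% of protein-coding genes. Of the 9 matches, 5 also overlapped TGATAA, because the letters TTATCAT hold both on opposite strands. None of the 9 lay inside a region of any of the 3 lists. The site nearest to a pooled region, at *elt-7* 149 bp upstream, was 39 bp from the edge of the region that ranked 24779.

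The shorter core was most frequent upstream of *med-2*. There were 18 cores upstream of *med-2*, a number reached by 1.94% of genes, and 12 upstream of *med-1*, reached by 23.0%. *end-1* had 9 and *end-3* had 3, while the median over protein-coding genes was 9. *elt-2* had 7 cores, *elt-7* had 4 and *elt-4* had 13.

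GATA sites, by contrast, were concentrated at *elt-2*, whose product is known to act on its own promoter. TGATAA occurred 11 times upstream of *elt-2*, and 0.0951% of protein-coding genes had at least as many. *elt-4* had 5 and *med-1* had 4, and the other genes had 1 or 2, where the median was 2. Of the 26 matches upstream of the 7 genes, 1 lay inside a region in each list: at *elt-2* in the pooled list, at *elt-4* in replicate 1 and at *med-1* in replicate 2.

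Within the regions themselves, the full SKN-1 site was present in 2 of the 19 regions of the cascade over the 3 lists. These counts are too small to set apart from the shares over all regions. None of the 3 pooled regions held the site, against 17.8% of all pooled regions. In replicate 1, 2 of 10 held it, against 11.1% of all its regions, namely the regions near the 3′ ends of *end-1* and *elt-2*. In replicate 2, 0 of 6 held it, against 18.5%. No region of the cascade held a MED site in any list.

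**Figure D3:**
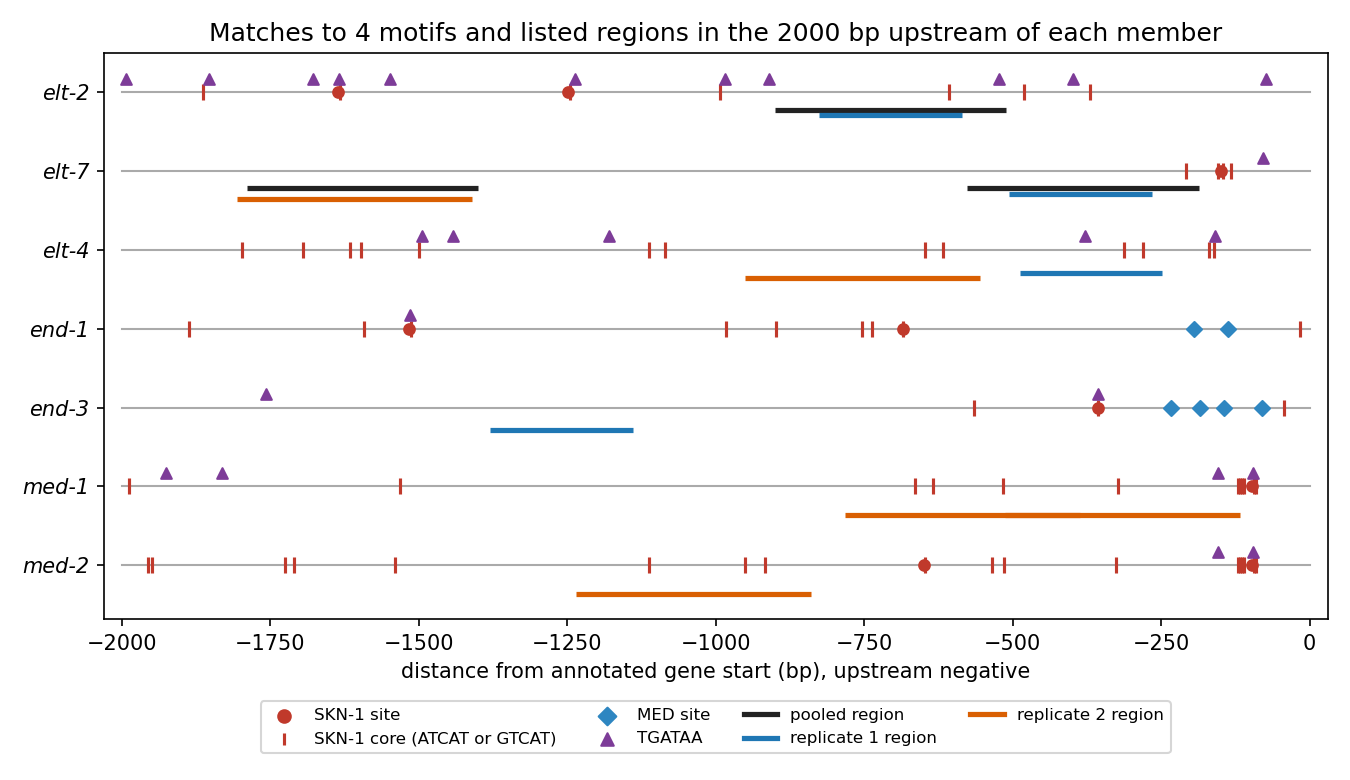
Matches to the SKN-1 site, the SKN-1 core, the MED site and TGATAA in the 2000 bp upstream of each gene, in bp from the start, with listed regions drawn as bars under each line. The MED sites of *end-1* and *end-3* and the clustered SKN-1 cores of *med-1* and *med-2* lie close to the start. No bar reaches the MED sites, and the only bar that touches a cluster is the replicate 2 region of *med-1*, by 3 bp.

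Around the genes, within 20000 bp on each side there were 12 pooled regions at *elt-2*, 7 at *elt-7*, 14 at *elt-4*, 10 at *end-1*, 9 at *end-3*, 9 at *med-1* and 10 at *med-2*, against a median of 12 over protein-coding genes, whose middle range was 9 to 15. The median and middle range were the same in both replicates, where 3 counts lay above that range, 21 at *med-2*, 19 at *end-3* and 17 at *elt-4*, all in replicate 1, and 1 lay below it, 8 at *end-3* in replicate 2. Among the pooled regions nearest to the 5 genes that had none, the strongest lay beside *end-3*. Its region, chrV:14012129-14012518, ranked 424 in the pooled list with a signal of 21.6, and its summit was 2371 bp upstream of *end-3*, just outside the window, and 9 bp from the start of *aip-1*. *aip-1* is an arsenite-inducible gene. The same position ranked 173 in replicate 1 and 10418 in replicate 2. The farther region of *elt-7*, at 1595 bp upstream, was the pooled region farthest from its start inside a window.

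At the *end* and *med* genes that remain, the nearest summit was 2838 bp upstream of *end-1* (rank 5193, nearest start *eol-1*), 4456 bp upstream of *med-1* (rank 27241) and 3229 bp downstream of the start of *med-2* (rank 6179, nearest start *brd-1*). Peaks that passed the authors' threshold were far from the cascade. The nearest were 40540 bp from *end-3*, 67379 bp from *med-1* and 70107 bp from *end-1*, and the nearest to *elt-2*, *elt-4*, *med-2* and *elt-7* lay 612963, 618676, 970172 and 1453985 bp away in that order.

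Many genes of the other gene lists compared had stronger pooled regions than the cascade itself. So did much of the genome, since 51.8% of all protein-coding genes had a stronger pooled region than *elt-2*. Against 2 of 7 in the cascade, 4 of 4 other GATA factor genes had a pooled region. *elt-1*, which specifies epidermis, ranked 1972 and *elt-3*, which acts in the epidermis after it, ranked 5438. *elt-6* and *egl-18*, which act in the seam cells of the epidermis, ranked 2284 and 10264 in that order. The median window of these 4 genes was 7814 bp, against 3286 bp for the cascade, and each of their windows was over 5 kb. A pooled region was found at 73.1% of all protein-coding genes and at 88.5% of those with windows over 5 kb.

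Maternal factors and the Wnt and MAPK genes that act with SKN-1 in the early embryo included the highest single ranks of the gene lists compared. Of these 17 genes, 15 had a pooled region and 5 had one among the 1000 strongest, in windows with a median of 6896 bp. A pooled region was found at 73.1% of all protein-coding genes and at 88.5% of those with windows over 5 kb, and one among the 1000 strongest at 5.31% of all genes, a share not matched for window length. *mom-1*, which is needed for Wnt secretion, had a thresholded peak in an intron with rank 27 and a signal of 41.1, and its position ranked 99 in replicate 1 and 2 in replicate 2. *mex-1*, which encodes an RNA-binding protein of the early embryo, had a thresholded peak of rank 60 in its window, 163 bp from the start of W03C9.5. *skn-1* itself had a region of rank 195 in an intron, where the tagged transgene and the resident gene cannot be told apart in these lists. *pos-1*, for another maternal RNA-binding protein, ranked 360 in a coding exon, and *lit-1*, for a kinase of the Wnt pathway, ranked 389 in an intron. In replicates 1 and 2, the position ranked 69 and 59 at *mex-1*, and 1550 and 188 at *skn-1*. It ranked 28540 and 172 at *pos-1*, and 568 and 1986 at *lit-1*.

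Gut differentiation genes are the targets at the far end of the cascade. Of 17 genes, 14 had a pooled region, 4 among the 1000 strongest, with a median window of 5247 bp, against the same shares of 73.1% (88.5% for windows over 5 kb) and 5.31%. The yolk protein gene *vit-6* ranked 230, the protease gene *asp-1* ranked 608, the transporter gene *pgp-1* ranked 782, *vit-2* ranked 959 and the protease gene *cpr-6* ranked 1563. In that order, these positions ranked 2418, 7497, 16486, 12583 and 15935 in replicate 1. In replicate 2 they ranked higher, at 440, 382, 85, 1139 and 3948. The regions of *vit-6*, *asp-1* and *vit-2* lay in coding exons. That of *pgp-1* lay in an intron, with the start of *cul-6* nearest at 4277 bp. None had a thresholded peak.

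Of 6 genes for mesoderm and pharynx specification, the sister branch below the MED proteins, 3 had a pooled region, against 73.1% of all genes and 88.5% of those with windows over 5 kb. Their median window was 5903 bp. These were *pha-4*, the pharynx selector gene, at rank 3514, *ceh-22* at rank 11719 and *tbx-2* at rank 15243. *tbx-35* and *ceh-51*, early mesoderm factors below the MED proteins, had no region in any of the 3 lists, as was true of 9.34% of protein-coding genes. Their windows were only 3297 and 3850 bp, and 66.0% of genes with windows of 3 to 4 kb had a pooled region. Both were named after their values were seen.

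**Figure D4:**
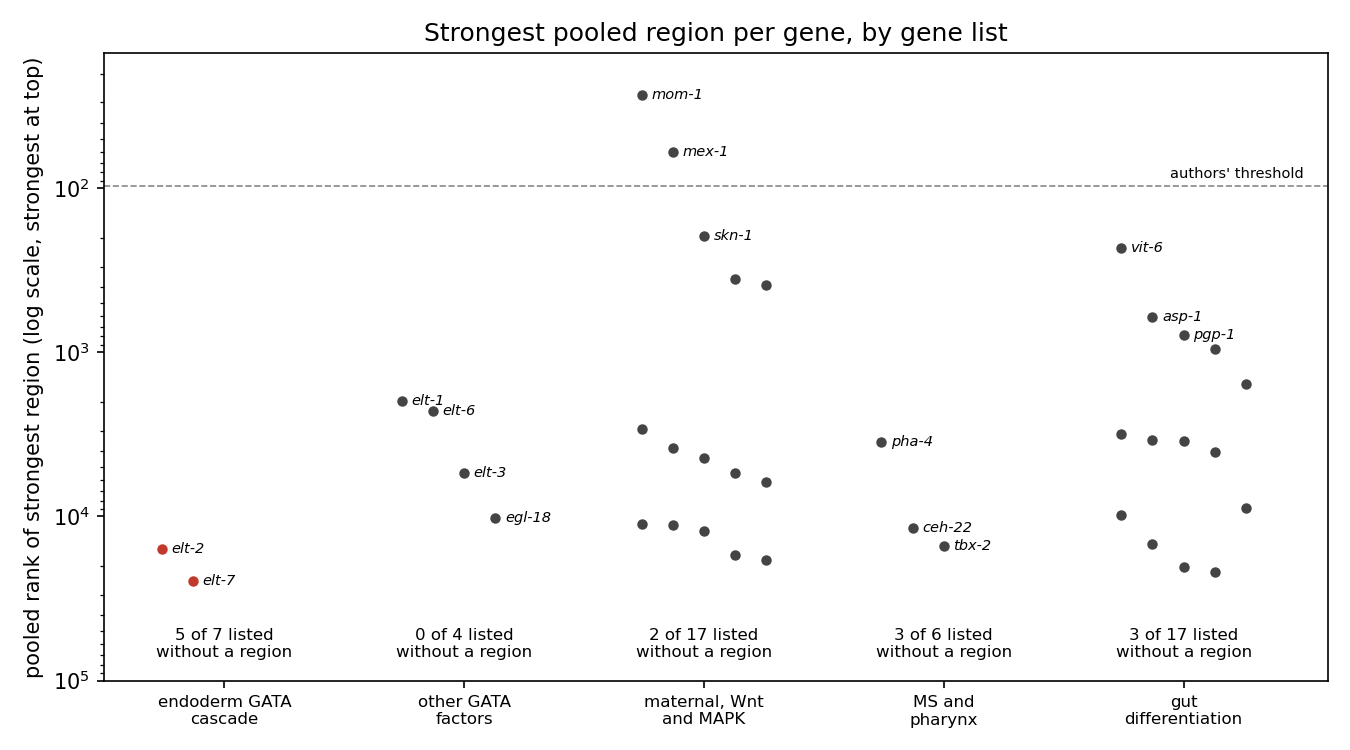
Rank of the strongest pooled region of each gene (log scale, strongest at the top) in 5 gene lists; genes without a pooled region are counted at the foot, and the dashed line marks the authors' threshold. *elt-2* and *elt-7*, in red, lie below all 4 other GATA factor genes.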

How the data were processed

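ChIP-seq of eGFP-SKN-1 in 2 biological replicates of L4 larvae was used as deposited region lists. Per the deposited file listing, the authors derived the pooled and replicate lists from read alignments set against a control, and kept background along with peaks so that reproducibility (the irreproducible discovery rate) could be scored. The caller, the aligner and the rate were not given in the sources used here. Depth is unknown. The deposited signal value (column 7) ordered regions inside each list. As an alternative order, the −log10 q-value deposited in column 9 was taken. The 4 lists on ce10 were not used.

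Coordinates are ce11, counted from 1. Genes came from Ensembl release 115 on the same assembly and sequences from the RefSeq copy of it. A region was assigned to a gene when its summit lay in the gene body or within 2000 bp upstream, so a region can count for several genes. Motifs were matched exactly on both strands. No chance test was run. Regions, genes and sites are not replicates.

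The 7 genes and all gene lists were chosen with earlier results of these data known. Named are the 7 genes, all other GATA factors, the 5 genes of each further list with the strongest pooled region, and neighbours that share or adjoin a region. The assignment was tested on simulated data, where 200 of 200 planted regions were found. Python 3.11.15, pandas 2.3.3 and numpy 2.4.6 were used.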

Additional observations from a re-analysis of the deposited data

How the results depend on the processing

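No paired analysis was possible because there is 1 group. Alternatives covered the window, the list cut-off, the overlap rule, the ranking column and each replicate alone. Pooled regions in the windows of the 7 genes numbered 3; there were 9 with 5000 bp upstream, 0 among the 15000 or the 5000 strongest regions, and 6 to 10 in single replicates. Genes with a region numbered 2, against 5 with 5000 bp upstream, 0 among the 15000 or 5000 strongest, and 5 in each replicate. The gut factors had 3 regions, against 6 with 5000 bp upstream, 0 in both stricter sets, and 2 to 4 in single replicates. The early genes had 0, against 3 with 5000 bp upstream and 3 to 4 in single replicates. The share of all protein-coding genes with a region was 73.1%; it was 64.8% with 1000 bp upstream, 86.8% with 5000 bp, 48.3% with upstream sequence only, 75.7% counting any overlap, 50.1% and 22.5% for the 15000 and 5000 strongest regions, and 73.6% to 73.9% in single replicates. Of the 44 genes of the other gene lists 36 had a region, against 21 with upstream sequence only and 20 among the 5000 strongest. Pooled regions of the 7 genes holding the full SKN-1 site numbered 0, against 1 when 200 bp were added on each side (at *elt-7*) and 2 for the core alone. With windows of 1000 bp upstream, upstream sequence only or any overlap, 2 of 2 gut factors and 0 of 4 early genes had a pooled region. The best *elt-2* region ranked 15830 in the pooled list, 2910 in replicate 1 and 26684 in replicate 2. The *elt-7* rank was 24779, against 16982 in replicate 1 and 20648 in replicate 2. The count of regions among the strongest and the count of pooled regions overlapping both replicates stayed at 0 in the alternatives run. Genes without a pooled region have no pooled rank to compare. Lists without counts give no depth, so no limit on undetected binding can be stated.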
